A study of Homo sapiens with 9 samples.

Results

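The genes described here are 37 genes of glycolysis and of the response to low oxygen, measured in TC32, an established cell line from Ewing sarcoma, a tumour of bone and soft tissue driven by a fusion of EWSR1 with an ETS gene. The genes were chosen by name, and all 37 were found among the 58233 genes of the deposited tables. They comprise 15 genes for the steps from glucose to pyruvate, 4 for the fate of pyruvate and lactate, 2 that set the level of fructose 2,6-bisphosphate, 6 for the hypoxia-inducible factors (HIF) and their control, and 10 known as genes induced in low oxygen. All 37 passed the filter on low counts, so each had a test in every comparison.

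RNA sequencing of polyadenylated RNA was done on 9 libraries in 3 groups of 3. The inhibitor cells had Wnt3a, a ligand of the Wnt/beta-catenin pathway, for 28 h and SB-505124, which blocks the TGF-beta and activin type I receptor kinases, for the last 24 h. Wnt3a cells had the ligand for 28 h with DMSO in place of the inhibitor, and vehicle cells had PBS and then DMSO. All cells grew in the same medium with fetal bovine serum, no group had the inhibitor without Wnt3a, and the labels name no change of oxygen in any group.

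Glycolysis splits glucose into pyruvate, which lactate dehydrogenase turns into lactate and the pyruvate dehydrogenase complex passes to mitochondria. HIF is a pair of an alpha subunit (such as HIF1A or EPAS1) and a partner such as ARNT. In oxygen, EGLN prolyl hydroxylases mark the alpha subunits and VHL sends them to the proteasome, so HIF activity is set mainly at the level of protein, which RNA does not show. Many glycolytic genes carry HIF sites, and high glycolysis with oxygen present is a long-known trait of tumour cells.

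Total expected counts were 28844348 to 37540072 in inhibitor libraries, 36903919 to 42976799 in Wnt3a libraries and 34348339 to 38637007 in vehicle libraries. The inhibitor libraries stood apart on the first principal component (56.5% of the variance), and inhibitor replicate 1 stood apart from the other libraries of its group on the second (-66.9, against 26.9 and 24.5). All 12 Ewing markers had at least 1 TPM in every library. Their summed level was 1893 to 2433 TPM in inhibitor libraries, 2962 to 3429 TPM in Wnt3a libraries and 3241 to 3718 TPM in vehicle libraries. In inhibitor over Wnt3a cells 6 of the 12 fell (50%) and 0 rose, where 25.9% and 24.5% of all genes tested did. CD99, the largest part of the sum, did not pass (log2 fold change 0.07, edgeR adjusted p = 0.576), and CCND1, the next largest, fell (-0.88). Of 12 markers of endothelial, blood, epithelial and fibroblast cells, 8 were under 1 TPM in every library, and the sum of the 12 was 61.3 to 71.7, 90.2 to 119.8 and 58.6 to 63.4 TPM in inhibitor, Wnt3a and vehicle libraries. COL3A1, DCN and CD68 made up most of that sum, the endothelial and leukocyte markers VWF, CDH5 and PTPRC were at or near 0, and the part of any of these levels in the results was not tested. AXIN2, a Wnt feedback gene, was higher in Wnt3a cells than in vehicle cells by 2.61 on the log2 scale, and PMEPA1, a TGF-beta target, was lower in inhibitor cells than in Wnt3a cells (log2 fold change -1.79). SMAD7 and SKIL, feedback genes of the TGF-beta pathway, did not pass in that comparison (-0.27, adjusted p = 0.157, and -0.11, adjusted p = 0.52).

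Adding the inhibitor to Wnt3a moved these genes in both directions. Against Wnt3a cells, 12 of the 37 rose, 10 fell and 15 did not pass the test (edgeR quasi-likelihood test, Benjamini-Hochberg adjusted p under 0.05). Of all 17880 genes tested, 24.5% rose and 25.9% fell in the same comparison, so the shares of 32.4% and 27.0% among the 37 lay near the background. The median log2 fold change was 0.21 over the 37 and -0.06 over all genes tested. At a change of at least 2-fold, 5 of the 37 rose and 5 fell, or 13.5% each, against 7.32% and 15.0% of all genes. Without inhibitor replicate 1, 15 of the 37 rose and 10 fell, where 25.1% and 27.0% of all genes did. In bulk RNA, fewer cells that express a gene and less of its RNA per cell cannot be told apart.

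The split depends on the scaling. With library totals alone in place of TMM factors the log2 fold changes of all genes shifted by -0.25, 10 of the 37 rose and 12 fell, where 15.8% and 35.9% of all genes did, and the share of rises among all calls was 30.6% in place of 48.6%. On log2(TPM + 1) with limma-trend, 7 of the 37 rose and 12 fell, where 12.8% and 35.5% of all genes did, and that share was 26.5%. The values below are CPM, a gene's counts as a share of the TMM-scaled library, for comparing groups and TPM for comparing genes. The value after ± is the SD over 3 libraries for a level and the SE for a log2 fold change.

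**Figure D1:**
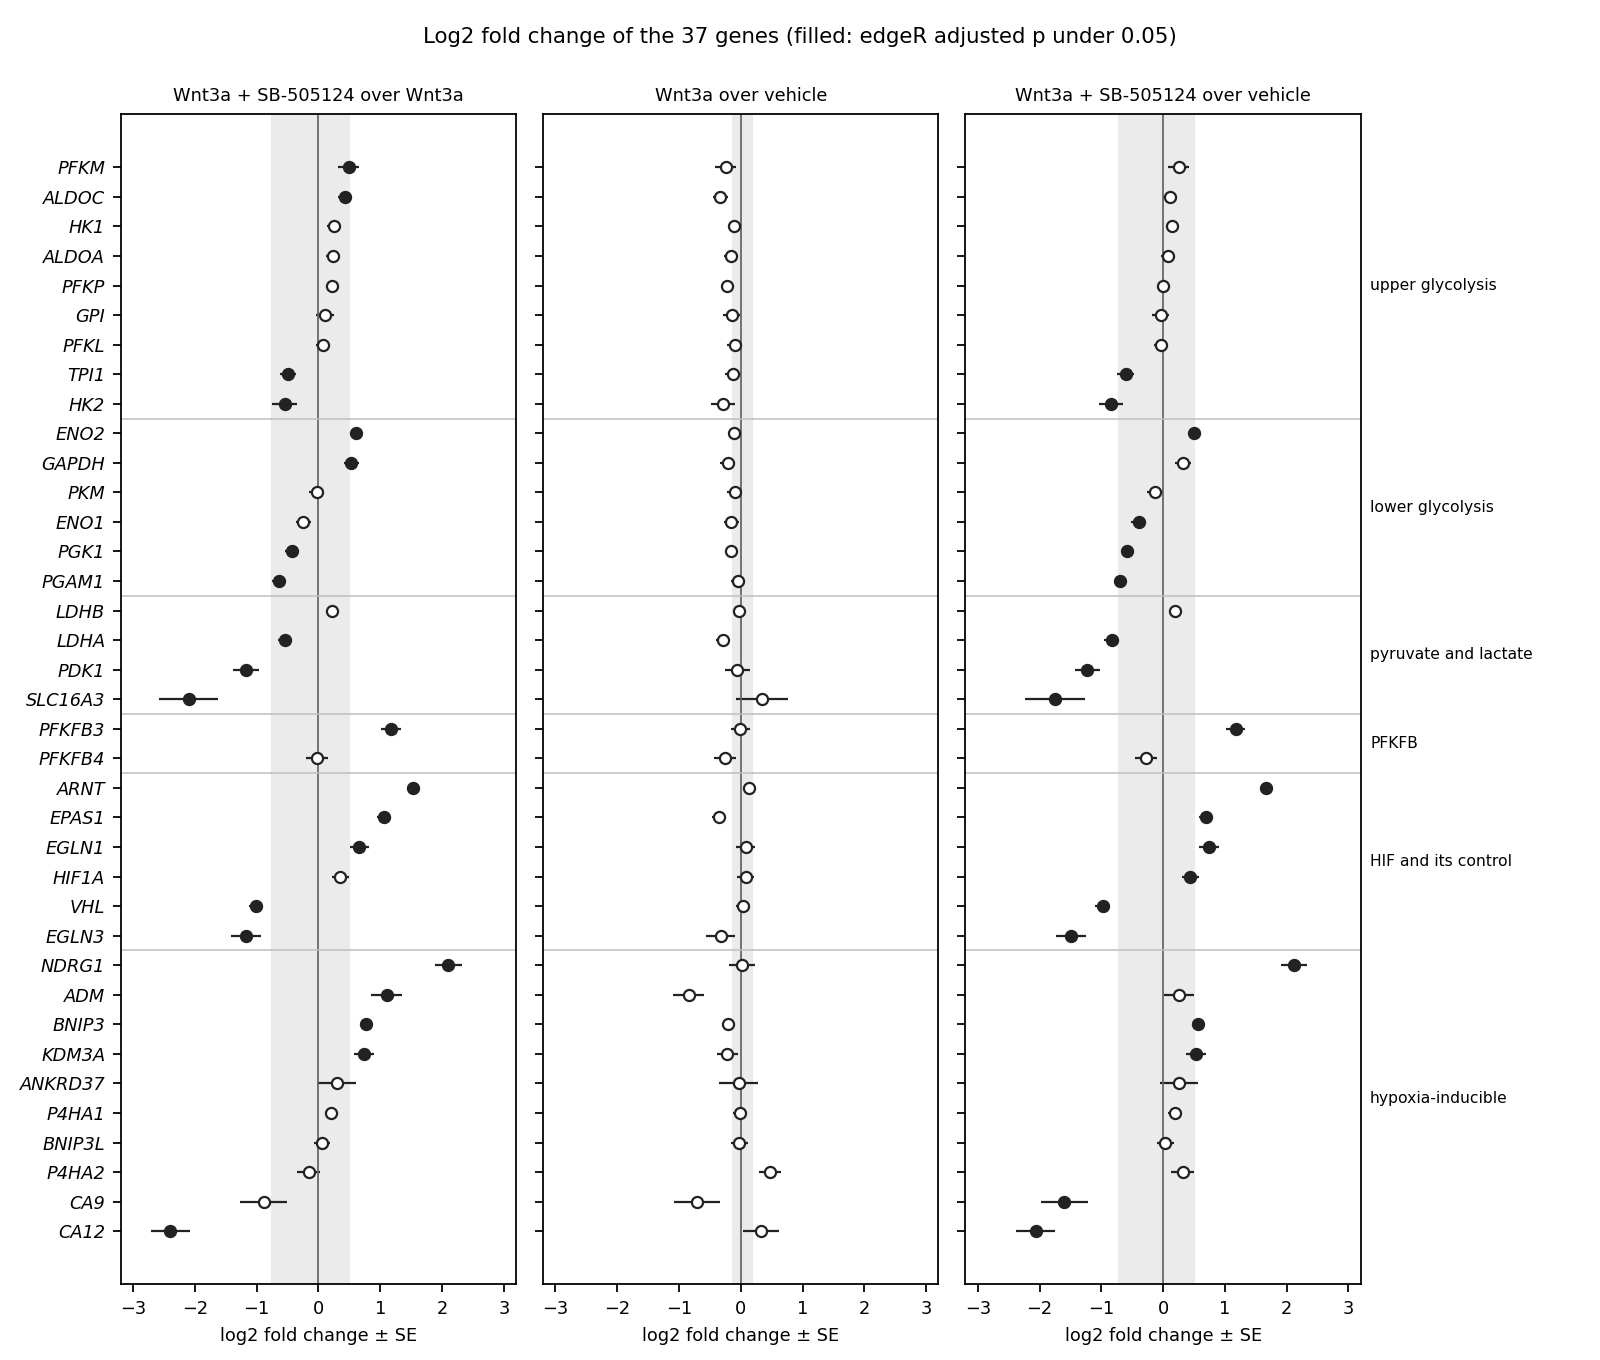
Log2 fold change (x axis, ± SE) of each of the 37 genes (y axis, by role) in the 3 comparisons. Filled points passed an adjusted p of 0.05, and the grey band holds the middle 50% of all 17880 genes tested. In the left panel 22 points are filled and they lie on both sides of 0, from NDRG1 at 2.10 to CA12 at -2.40, and in the middle panel none is filled.

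For the enzymes from hexokinase to triosephosphate isomerase, 2 of 9 rose, 2 fell and 5 did not pass. HK2, the inducible hexokinase of many tumours, had 29.7, 19.8 and 23.9 CPM in inhibitor cells, 33.4, 29.8 and 43.9 CPM in Wnt3a cells, and 45, 35.6 and 50.8 CPM in vehicle cells. The highest inhibitor library lay just under the lowest Wnt3a library, and the groups did not overlap. HK2 fell by 0.55 ± 0.20 on the log2 scale (adjusted p = 0.0384). That call was lost without inhibitor replicate 2 or 3, Wnt3a replicate 1 or 3 or vehicle replicate 1, with log2 fold changes from -0.37 to -0.59 and adjusted p from 0.0529 to 0.145, and with an offset for effective length (-0.51, adjusted p = 0.0563). HK1, the hexokinase of most tissues, did not pass (0.25, adjusted p = 0.0759), except without Wnt3a replicate 3 (0.33, adjusted p = 0.0446).

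TPI1, which interconverts the triose phosphates, fell by 0.49 ± 0.13 (adjusted p = 0.0109) to 456 ± 86.0 CPM in inhibitor cells, against 640 ± 17.7 CPM in Wnt3a cells. ALDOC, the brain-type aldolase, rose by 0.44 ± 0.11 (adjusted p = 0.00977) to 22.2 ± 1.17 CPM, against 16.4 ± 1.83 CPM. PFKM, the muscle-type phosphofructokinase, was called higher (0.49 ± 0.17, adjusted p = 0.0352), with 203 CPM in inhibitor replicate 1 but 136 and 129 CPM in the others, against 98.2 to 121 CPM with Wnt3a. Without that library the log2 fold change of PFKM was 0.26 (adjusted p = 0.0879), and the call was also lost without any 1 of the Wnt3a libraries (0.42 to 0.56, adjusted p from 0.0503 to 0.102). GPI, PFKL, PFKP and ALDOA had log2 fold changes of 0.07 to 0.24 and did not pass. ALDOA and PFKP passed once inhibitor replicate 1 was left out (0.36, adjusted p = 0.00547, and 0.31, adjusted p = 0.00965).

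Among the enzymes from GAPDH to pyruvate kinase, GAPDH and ENO2 rose, PGK1 and PGAM1 fell, and ENO1 and PKM did not pass. GAPDH, which makes 1,3-bisphosphoglycerate and often serves as a reference transcript, had 3783, 4931 and 4769 CPM in inhibitor cells, 3079, 2751 and 3488 CPM in Wnt3a cells, and 3776, 3358 and 3649 CPM in vehicle cells. Every inhibitor library lay above every Wnt3a library. The log2 fold change was 0.53 ± 0.12 (adjusted p = 0.00529), but on log2(TPM + 1) it was 0.17 and did not pass (limma-trend adjusted p = 0.318). In TPM the groups overlapped, at 3982 to 5224 TPM in inhibitor cells and 3909 to 4636 TPM in Wnt3a cells.

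PGK1, the first ATP-forming step, had 314, 416 and 375 CPM in inhibitor cells, 511, 458 and 518 CPM in Wnt3a cells, and 555, 539 and 556 CPM in vehicle cells. All inhibitor libraries were below all others, and PGK1 fell by 0.43 ± 0.11 (adjusted p = 0.00808). PGAM1, which moves the phosphate of 3-phosphoglycerate, fell by 0.64 ± 0.11 (adjusted p = 0.000844), to 334 ± 45.8 CPM in inhibitor cells against 522 ± 35.6 CPM in Wnt3a cells.

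ENO1, the ubiquitous enolase, had 1098, 1512 and 1381 CPM in inhibitor cells, 1716, 1468 and 1549 CPM in Wnt3a cells, and 1683, 1912 and 1666 CPM in vehicle cells. Inhibitor replicate 2 overlapped the Wnt3a group, and the log2 fold change of -0.25 ± 0.13 did not pass (adjusted p = 0.126), although it did with library totals alone (-0.50, adjusted p = 0.00591) and on log2(TPM + 1) (-0.61, adjusted p = 0.0036). ENO2, the neuronal enolase, rose to 115 ± 1.35 CPM in inhibitor cells, against 75.2 ± 1.66 CPM in Wnt3a cells (0.61 ± 0.08, adjusted p = 0.000145). PKM, pyruvate kinase, had 1077, 1521 and 1438 CPM in inhibitor cells, 1366, 1320 and 1438 CPM in Wnt3a cells, and 1396, 1557 and 1468 CPM in vehicle cells. These groups overlapped in CPM, and the log2 fold change of PKM was -0.03 ± 0.12 (adjusted p = 0.85). In TPM the inhibitor libraries, at 589 to 922 TPM, lay below the Wnt3a libraries (934 to 1056 TPM) and the vehicle libraries (966 to 1027 TPM).

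**Figure D2:**
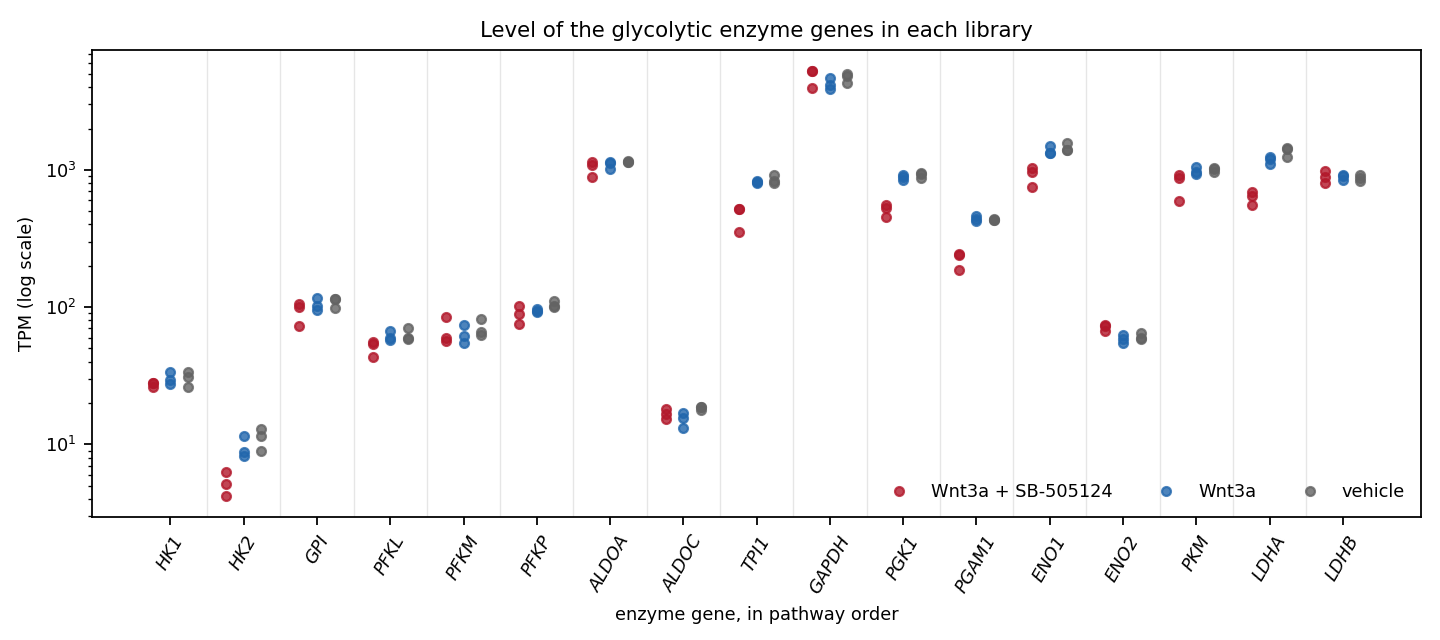
TPM (y axis, log scale) of the 17 glycolytic enzyme genes in pathway order (x axis), with 1 point per library in inhibitor, Wnt3a and vehicle cells. GAPDH is the highest at 3909 to 5224 TPM and HK2 the lowest at 4.21 to 13.0 TPM. The red points of HK2, PFKL, TPI1, PGK1, PGAM1, ENO1, PKM and LDHA lie below all blue and grey ones. On log2(TPM + 1) the log2 fold changes of all genes tested shifted by a median of -0.27 in inhibitor over Wnt3a cells. With TMM factors PFKL, ENO1 and PKM did not pass in that comparison. The share of all genes with such a gap in TPM was not computed.

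Per length, GAPDH was the most abundant of these genes in all groups, and ALDOA, ENO1, PKM, LDHA and LDHB were between 550 and 1567 TPM in every library. Hexokinase was the reaction with the least RNA, at 32.5 ± 0.37 TPM for HK1 and HK2 together in inhibitor cells, 39.6 ± 4.80 TPM in Wnt3a cells and 41.3 ± 6.01 TPM in vehicle cells. The 17 enzyme genes, lactate dehydrogenases included, took 1.07 ± 0.15% of all TPM in inhibitor cells, 1.24 ± 0.06% in Wnt3a cells and 1.32 ± 0.03% in vehicle cells. Inhibitor replicate 1 held the lowest share, 0.894%, and inhibitor replicates 2 and 3 held 1.17% and 1.14%, against 1.17 to 1.28% in Wnt3a libraries. On log2(TPM + 1) the log2 fold changes of all genes tested shifted by a median of -0.27 in inhibitor over Wnt3a cells. That shift was not taken out of these sums and shares, so they do not show a loss particular to these genes.

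In the group at the end of the pathway, LDHA, PDK1 and SLC16A3 fell, none rose and LDHB did not pass. LDHA (chromosome 11, 18394388 to 18408425 on hg38), whose enzyme favours lactate, had 733, 957 and 856 CPM in inhibitor cells, 1291, 1111 and 1311 CPM in Wnt3a cells, and 1597, 1389 and 1555 CPM in vehicle cells. The highest inhibitor library was below the lowest of the other 6. LDHA fell by 0.54 ± 0.12 against Wnt3a cells (adjusted p = 0.00328).

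LDHB (chromosome 12, 21635342 to 21757857), the heart-type subunit that favours pyruvate, had 644, 775 and 735 CPM in inhibitor cells, 673, 573 and 613 CPM in Wnt3a cells, and 623, 658 and 611 CPM in vehicle cells. The groups overlapped, with a log2 fold change of 0.21 ± 0.10 (adjusted p = 0.0954), and the gene passed without inhibitor replicate 1 (0.29, adjusted p = 0.0198) and with an offset for effective length (0.36, adjusted p = 0.0174). The authors' effective length of LDHB, which enters TPM, averaged 956 bases in inhibitor cells and 1058 bases in Wnt3a cells. LDHA made up 40.6, 41.3 and 42.2% of the summed LDHA and LDHB TPM in inhibitor cells, 57.5, 56.5 and 57.2% in Wnt3a cells, and 62.0, 57.4 and 63.3% in vehicle cells. In TPM the more abundant of the 2 subunits was LDHB in all 3 inhibitor libraries and LDHA in the other 6. The share differed by -15.7 points between inhibitor and Wnt3a cells, and the 2-sided exact permutation test gave p = 0.1, the smallest that 3 against 3 libraries allow.

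PDK1, a kinase that switches off pyruvate dehydrogenase, had 7.97, 5.26 and 4.47 CPM in inhibitor cells, 14.1, 13.8 and 11.9 CPM in Wnt3a cells, and 15.5, 12.8 and 13.1 CPM in vehicle cells. No inhibitor library reached the others, and PDK1 fell by 1.17 ± 0.21 (adjusted p = 0.00114). Its effective length, as the authors' tables give it, averaged 2170 bases in inhibitor cells and 3076 bases in Wnt3a cells, and with an offset for that length the log2 fold change was -0.61 (adjusted p = 0.0885). SLC16A3, the lactate exporter MCT4, was barely detected, at 0.0759, 0.213 and 0.224 CPM in inhibitor cells, 0.785, 0.938 and 0.546 CPM in Wnt3a cells, and 0.506, 0.509 and 0.768 CPM in vehicle cells. It fell by 2.10 ± 0.48 (adjusted p = 0.00464). CSNK1D, whose exons overlap it on the opposite strand, had far more counts in every group, and the strand setting of the authors' counting is not given in the sources used here.

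**Figure D3:**
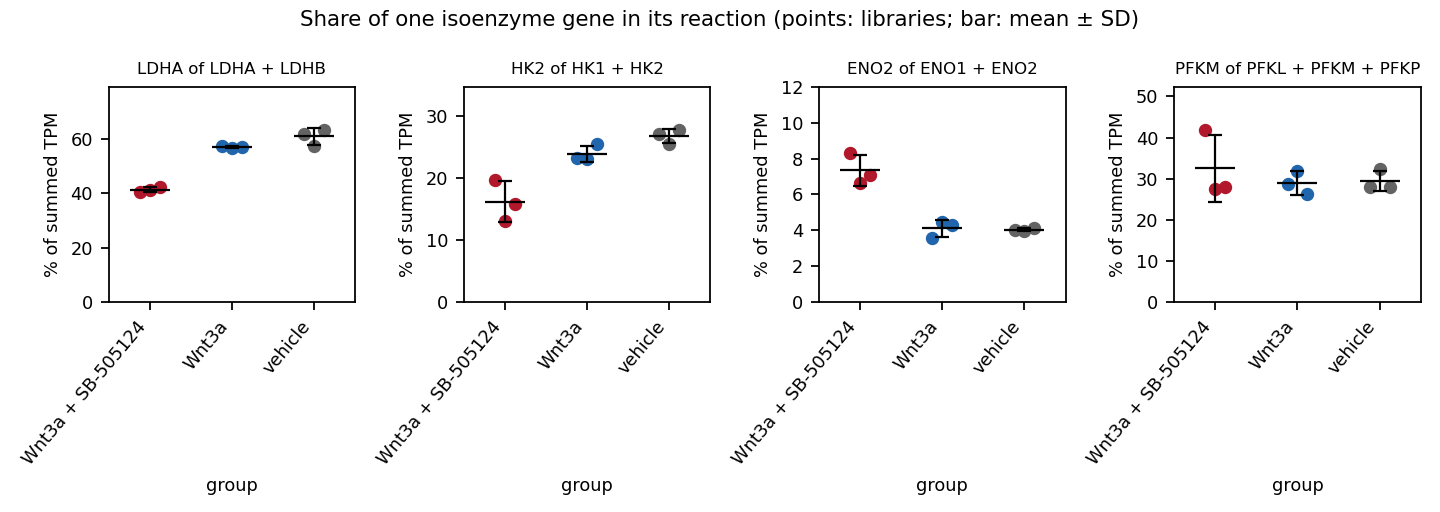
Share of 1 gene in the summed TPM of its reaction (y axis, %) in inhibitor, Wnt3a and vehicle cells (x axis), with points for libraries and bars for mean ± SD. LDHA sits at 40.6 to 42.2% in inhibitor cells and at 56.5 to 63.3% in the other libraries, and PFKM is high in inhibitor replicate 1 alone.

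The other reactions with several genes showed smaller shifts in TPM. HK2 made up 16.1 ± 3.31% of hexokinase TPM in inhibitor cells, 23.8 ± 1.31% in Wnt3a cells and 26.7 ± 1.14% in vehicle cells. ENO2 made up 7.34 ± 0.86% of enolase TPM in inhibitor cells, 4.11 ± 0.48% in Wnt3a cells and 4.03 ± 0.08% in vehicle cells. For both, no inhibitor library overlapped the Wnt3a libraries, and the exact permutation p was again 0.1. PFKM made up 41.8% of phosphofructokinase TPM in inhibitor replicate 1 but 27.6 and 28.0% in inhibitor replicates 2 and 3, within the range of the Wnt3a libraries (26.2 to 32.0%; exact permutation p = 0.7).

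PFKFB3 and PFKFB4 make and break down fructose 2,6-bisphosphate, the strongest activator of phosphofructokinase. PFKFB3 (chromosome 10, 6144934 to 6254644) had 154, 185 and 188 CPM in inhibitor cells, 73.2, 66.7 and 93.4 CPM in Wnt3a cells, and 84.5, 63.3 and 86.5 CPM in vehicle cells. It rose by 1.18 ± 0.16 against Wnt3a cells (adjusted p = 0.000218) and every inhibitor library was above every other. PFKFB4 was at 8.99 ± 1.18 CPM in inhibitor cells and 9.15 ± 1.5 CPM in Wnt3a cells, and did not pass (-0.02, adjusted p = 0.916).

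Of the 6 HIF genes, ARNT, EPAS1 and EGLN1 rose, VHL and EGLN3 fell, and HIF1A was at the edge of the threshold. ARNT (chromosome 1, 150809705 to 150876768), a partner of both HIF1A and EPAS1, had 237, 218 and 203 CPM in inhibitor cells, 74.0, 71.8 and 81.9 CPM in Wnt3a cells, and 70.3, 65.4 and 71.0 CPM in vehicle cells. That was a 2.88-fold difference from Wnt3a cells (1.53 ± 0.09, adjusted p = 4.09e-06) with no overlap. EPAS1 (chromosome 2, 46293667 to 46386703), which encodes HIF-2alpha, had 396, 329 and 327 CPM in inhibitor cells, 161, 152 and 193 CPM in Wnt3a cells, and 222, 216 and 210 CPM in vehicle cells. The inhibitor libraries were the 3 highest, and the log2 fold change was 1.06 ± 0.11 (adjusted p = 5.96e-05).

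HIF1A (chromosome 14, 61695513 to 61748259), the other alpha subunit, had 97.4, 127 and 114 CPM in inhibitor cells, 84.3, 80.3 and 99.9 CPM in Wnt3a cells, and 88.8, 70.9 and 90.5 CPM in vehicle cells. Inhibitor replicate 1 lay below Wnt3a replicate 3, so the groups overlapped, and the log2 fold change of 0.36 ± 0.14 did not pass (adjusted p = 0.0515). It passed in 7 of 17 alternatives, among them DESeq2 (adjusted p = 0.0294) and the fits without inhibitor replicate 1, Wnt3a replicate 3 or vehicle replicate 2 (adjusted p from 0.0182 to 0.0342). The lowest log2 fold change over the 17 was 0.031. In TPM the groups hardly differed, at 52.9 ± 6.19 TPM in inhibitor cells and 51.6 ± 2.90 TPM in Wnt3a cells. A gene on the same strand with overlapping exons, AL137129.1, held counts equal to 15.1% of those of HIF1A in inhibitor cells, 1.81% in Wnt3a cells and 1.73% in vehicle cells. Reads shared by both genes cannot be assigned with certainty.

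VHL (chromosome 3, 10141008 to 10152220), the substrate-binding part of the ubiquitin ligase for HIF alpha subunits, had 21.8, 17.9 and 19.4 CPM in inhibitor cells, 35.5, 39.9 and 43.4 CPM in Wnt3a cells, and 40.2, 35.8 and 40.3 CPM in vehicle cells. Its level with the inhibitor was 2.01-fold lower than with Wnt3a, with no overlap (-1.01 ± 0.12, adjusted p = 8.98e-05). EGLN1, the main prolyl hydroxylase in oxygen, rose by 0.66 ± 0.16 (adjusted p = 0.00554) to 99.2 ± 12.8 CPM in inhibitor cells, against 62.8 ± 8.70 CPM in Wnt3a cells. EGLN3, a hydroxylase that HIF itself induces, had 0.987, 1.55 and 1.28 CPM in inhibitor cells, 2.46, 2.81 and 3.37 CPM in Wnt3a cells, and 3.63, 3.80 and 3.38 CPM in vehicle cells. It fell by 1.17 ± 0.25 (adjusted p = 0.00288), and with the length offset it did not pass (-0.89, adjusted p = 0.0538). Its effective length averaged 1427 bases in inhibitor cells and 1826 bases in Wnt3a cells.

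**Figure D4:**
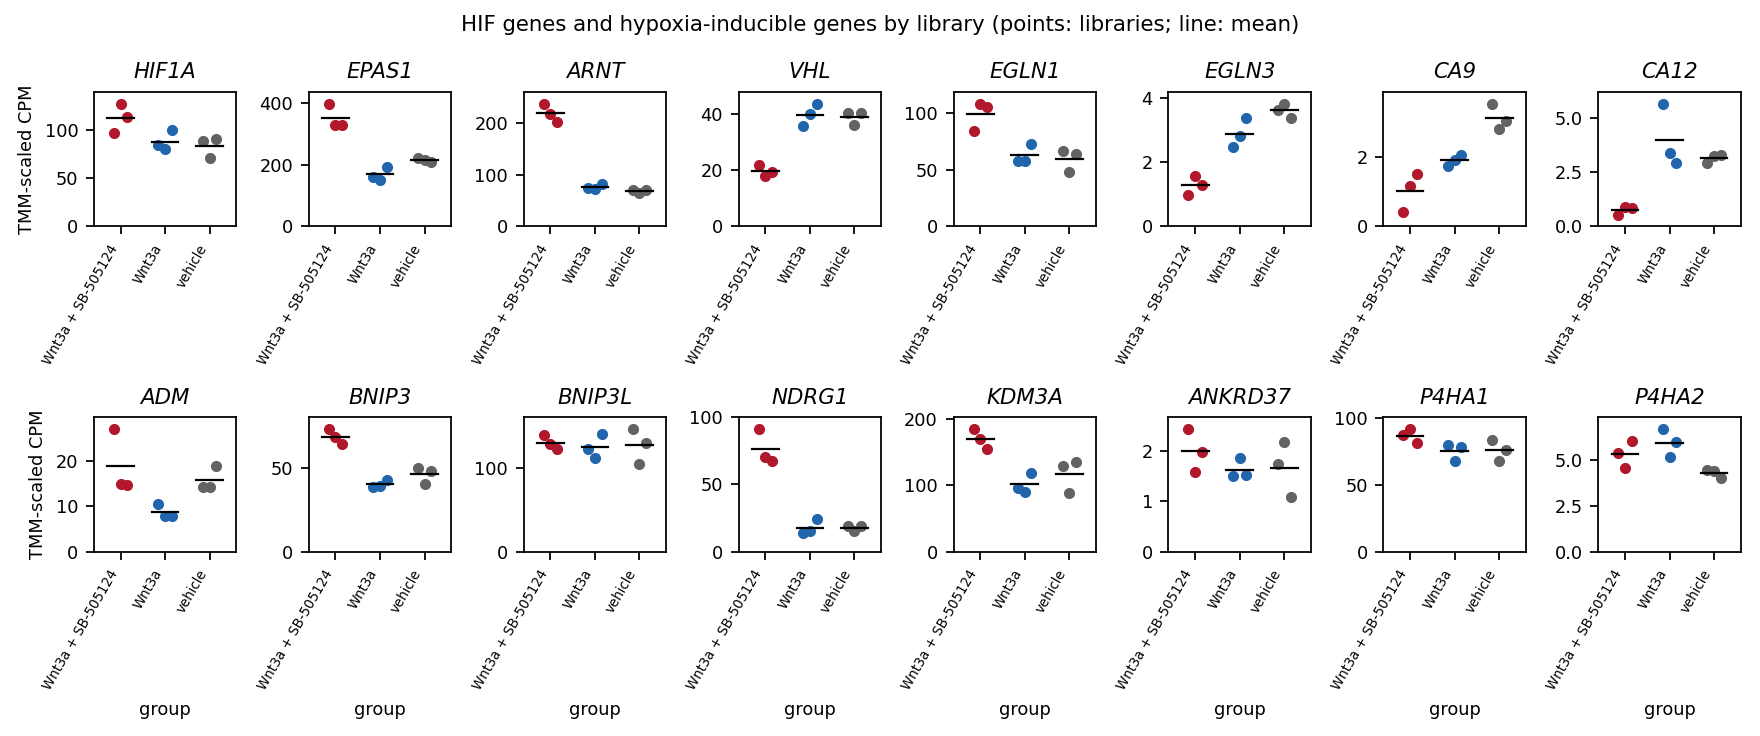
TMM-scaled CPM (y axes, each from 0) of 6 HIF genes and 10 hypoxia-inducible genes in inhibitor, Wnt3a and vehicle cells (x axes), with points for libraries and lines for means. The inhibitor libraries are above all others for EPAS1, ARNT, NDRG1, EGLN1, BNIP3 and KDM3A, and below all others for VHL, EGLN3, CA9 and CA12.

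Genes known to be induced in low oxygen did not move one way. NDRG1, ADM, BNIP3 and KDM3A rose, CA12 fell, and CA9, BNIP3L, ANKRD37, P4HA1 and P4HA2 did not pass. NDRG1 (chromosome 8, 133237171 to 133302022), a stress-induced gene described as a metastasis suppressor, had 91.0, 70.3 and 67.6 CPM in inhibitor cells, 14.0, 15.2 and 24.1 CPM in Wnt3a cells, and 18.7, 15.1 and 18.8 CPM in vehicle cells. It had the largest rise of the 37, at 4.30-fold (2.10 ± 0.21, adjusted p = 4.05e-05).

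BNIP3, a mitophagy receptor of the BCL2 family, had 73.2, 68.7 and 64.3 CPM in inhibitor cells, 38.7, 39.1 and 42.8 CPM in Wnt3a cells, and 50.2, 40.2 and 48.4 CPM in vehicle cells. It rose by 0.77 ± 0.11 (adjusted p = 0.000253) and the groups did not overlap. KDM3A, a histone H3K9 demethylase, rose by 0.74 ± 0.16 (adjusted p = 0.00385), to 169 ± 15 CPM in inhibitor cells against 101 ± 14.8 CPM in Wnt3a cells, but not on log2(TPM + 1) (limma-trend adjusted p = 0.0549). EGLN1 did not pass on that scale either (limma-trend adjusted p = 0.102).

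ADM, which encodes the vasodilator peptide adrenomedullin, had 26.9, 14.9 and 14.7 CPM in inhibitor cells, 10.5, 7.88 and 7.90 CPM in Wnt3a cells, and 14.1, 14.2 and 18.8 CPM in vehicle cells. Inhibitor replicate 1 was well above the others of its group, all 3 inhibitor libraries were above all Wnt3a libraries, and they overlapped the vehicle libraries. ADM was 1.10 ± 0.25 higher than in Wnt3a cells (adjusted p = 0.00438).

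The carbonic anhydrases CA9 and CA12, membrane enzymes that turn carbon dioxide into bicarbonate outside the cell, were low in TC32. CA12 (chromosome 15, 63321378 to 63382161) had 0.531, 0.882 and 0.831 CPM in inhibitor cells, 5.65, 3.37 and 2.91 CPM in Wnt3a cells, and 2.92, 3.25 and 3.30 CPM in vehicle cells. This was the largest fall of the 37, to a level 5.27-fold lower than with Wnt3a (-2.40 ± 0.32, adjusted p = 0.000204). CA9, among the most HIF-dependent genes known, had 0.417, 1.16 and 1.5 CPM in inhibitor cells, 1.75, 1.92 and 2.07 CPM in Wnt3a cells, and 3.54, 2.81 and 3.05 CPM in vehicle cells. All inhibitor libraries were below all Wnt3a libraries, yet the log2 fold change of -0.89 ± 0.38 did not pass (adjusted p = 0.0767), and it did without inhibitor replicate 3 (-1.26, adjusted p = 0.0337), with library totals alone (-1.14, adjusted p = 0.0287) and on log2(TPM + 1) (-0.86, limma-trend adjusted p = 0.00895). ARHGEF39 overlaps CA9 on the opposite strand and had more counts than it in every group.

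BNIP3L, the paralog of BNIP3, was at 130 ± 8.24 CPM in inhibitor cells and 125 ± 14.5 CPM in Wnt3a cells. The subunits of collagen prolyl 4-hydroxylase, P4HA1 and P4HA2, had log2 fold changes of 0.21 and -0.16, and ANKRD37, an ankyrin repeat gene at 1.07 to 2.43 CPM, had 0.29. None of these 4 passed the test (adjusted p from 0.126 to 0.725). Exons of other genes overlap 20 of the 37 genes. In 7 of them (ANKRD37, BNIP3L, CA9, HIF1A, HK2, PFKM and SLC16A3) an overlapping gene held at least 10% as many counts as the gene itself in some group.

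Wnt3a alone changed no gene of the 37 past the threshold. With edgeR 0 rose and 0 fell, where 0.397% and 0.0224% of all 17880 genes did, and DESeq2 and limma-trend also called 0, where they called 1.67% and 0.380% of all genes. At an unadjusted p under 0.05, P4HA2 was higher and PFKP, LDHA, ALDOC, EPAS1 and ADM were lower, so 1 and 5 genes, where 4.84% and 2.78% of all genes were. Of the 37 log2 fold changes, 29 were below 0, and their median was -0.11, against 0.01 for all genes tested. ADM had the largest difference, with 10.5, 7.88 and 7.90 CPM in Wnt3a cells and 14.1, 14.2 and 18.8 CPM in vehicle cells (-0.84 ± 0.25, adjusted p = 0.329). Its groups did not overlap, and it passed when every gene with at least 1 count was kept, as the only gene of the 37 (-0.83, adjusted p = 0.0274), where 0.121% of all genes fell. LDHA had a log2 fold change of -0.29 ± 0.12 (adjusted p = 0.577) and EPAS1 of -0.36 ± 0.11 (adjusted p = 0.387).

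The comparison of inhibitor cells with vehicle cells shares the inhibitor libraries with the first comparison and the vehicle libraries with the second, so it adds no independent evidence. In it 9 of the 37 rose, 12 fell and 16 did not pass, while 25.0% of all genes rose and 24.8% fell. With library totals alone the counts were 7 and 15, beside 17.1% and 33.8% of all genes, and the share of rises among all calls was 33.6% in place of 50.2%. The genes that rose were NDRG1 (2.12), ARNT (1.67), PFKFB3 (1.17), EGLN1 (0.74), EPAS1 (0.70), BNIP3 (0.57), KDM3A (0.53), ENO2 (0.50) and HIF1A (0.44, adjusted p = 0.0228). The HIF1A call was lost without inhibitor replicate 2 or 3 or vehicle replicate 2, and the KDM3A call without inhibitor replicate 1 or 2 or vehicle replicate 2 (adjusted p from 0.0516 to 0.0908 over these). Both calls were also lost with library totals alone (HIF1A 0.21, adjusted p = 0.163, and KDM3A 0.30, adjusted p = 0.115) and with limma-trend (0.25, adjusted p = 0.126, and 0.31, adjusted p = 0.277), and that of KDM3A with the length offset (0.57, adjusted p = 0.0617). With limma-trend neither ENO2 (0.23, adjusted p = 0.051) nor BNIP3 (0.26, adjusted p = 0.0763) passed. The genes that fell included CA12 (-2.06), SLC16A3 (-1.75), CA9 (-1.60, adjusted p = 0.00618), EGLN3 (-1.49), PDK1 (-1.23), VHL (-0.98), LDHA (-0.84) and HK2 (-0.84). PGAM1 (-0.69), TPI1 (-0.61), PGK1 (-0.58) and ENO1 (-0.40, adjusted p = 0.023) made up the rest. ENO1 was not called without vehicle replicate 2 (-0.33, adjusted p = 0.0818), and SLC16A3 was not without vehicle replicate 3 (-1.53, adjusted p = 0.0515), with limma-trend (-0.37, adjusted p = 0.0829) or with the length offset (-1.89, adjusted p = 0.066). ADM (0.26, adjusted p = 0.402) and GAPDH (0.32, adjusted p = 0.053) did not pass, and GAPDH did when inhibitor replicate 1, Wnt3a replicate 2 or Wnt3a replicate 3 was left out (adjusted p from 0.00691 to 0.0471).

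A wider set of 113 further genes of the same pathways, of which 104 passed the filter, gave 35 rises and 16 falls in inhibitor cells over Wnt3a cells, or 33.7% and 15.4%, beside the 24.5% and 25.9% of all genes. Of 43 tested genes of glucose transport, side branches and pyruvate entry, 15 rose and 5 fell, or 34.9% and 11.6%. The largest rises there were PDK4 (3.10), another pyruvate dehydrogenase kinase, SLC2A3 (2.96), the glucose transporter GLUT3, HKDC1 (2.79), a hexokinase-like gene, PDHX (1.37), a pyruvate dehydrogenase component, and MPC2 (0.95), part of the mitochondrial pyruvate carrier. PDK4 and HKDC1 were low in all groups, at 1.25 and 0.979 CPM in inhibitor cells against 0.144 and 0.139 CPM in Wnt3a cells. The falls were GPD1 (-1.17), PGAM5 (-1.02), PDP2 (-0.78), PDHA1 (-0.48) and SLC16A1 (-0.45), the last of which encodes the lactate transporter MCT1. PGAM5 is counted because it was on the list, and a part of it in glycolysis was not tested.

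Of 45 tested genes of the wider set reported as HIF targets, 15 rose and 9 fell, or 33.3% and 20%, beside 24.5% and 25.9% of all genes. SLC2A1, SLC2A3 and GBE1 are also in the list before, so the rises of SLC2A3 and GBE1 are counted in both. SLC2A3, CCNG2 (1.73), RORA (1.42) and PPP1R13L (1.33) were among the largest rises, and LOXL2 (-3.31), MIR210HG (-3.21), ANGPTL4 (-1.87), FUT11 (-1.33) and HILPDA (-1.14) fell the most. Among these, CCNG2 encodes an atypical cyclin, LOXL2 a collagen-crosslinking oxidase, MIR210HG the host transcript of miR-210, and HILPDA a lipid droplet protein. MIR210HG was at 0.162 CPM in inhibitor cells and 1.43 CPM in Wnt3a cells. VEGFA, the main growth factor of blood vessels, fell by 0.93 ± 0.16 (adjusted p = 0.000915), and was named after its value was seen.

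Of 19 further tested genes of the HIF machinery, 7 rose and 2 fell, or 36.8% and 10.5%, beside 24.5% and 25.9% of all genes. The coactivator CREBBP (0.98), COPS5 (0.87), RACK1 (0.70), HSP90AB1 (0.55) and OS9 (0.52) rose the most, and RBX1 (-0.32), the RING subunit of the VHL ligase, and HIF1AN (-0.28), the asparaginyl hydroxylase FIH, fell. In Wnt3a over vehicle cells, 0 of the 104 passed with edgeR, where 0.397% of all genes rose and 0.0224% fell. At an unadjusted p under 0.05, 2 were higher and 5 lower, where 4.84% and 2.78% of all genes were. DESeq2 called 1 of the 104 lower, beside 0.291% of all genes. The lowest adjusted p was 0.0535, for ANGPTL4 (-0.84).

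HIF dimers bind the core ACGTG or GCGTG, so the 250 bases before the first RefSeq start of each gene (GRCh38.p14) were searched for these letters on both strands, with overlapping matches counted singly and the palindrome CACGTG counted on each strand. The promoter table held 34 of the 37 genes. At least 1 match lay in 22 of them (64.7%), against 43.1% of 27305 genes in the table. Both cores contain CG, and the base content of the windows was not matched, so these shares do not show an excess of HIF sites. The letters were in 9 of 11 genes that rose with the inhibitor over Wnt3a, in 4 of 9 that fell and in 9 of 14 that did not pass, and 8 of the 34 (23.5%) had at least 2 matches, against 19.5% of all. Both LDHA, which fell, and BNIP3, which rose, had several matches, and LDHB had none.

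Below are the stretches of those windows that lie before the first GENCODE 29 exon inside each window, with the core letters in capitals. They are given for LDHA and LDHB, whose ratio turned, for PGK1, a glycolytic gene that fell, and for BNIP3, a gene that rose. The stretches of LDHB and PGK1 lie inside the annotated span of their gene. The full windows held 5 matches for LDHA, of which the 2 of 1 palindrome are in the stretch shown, 3 for PGK1 and 6 for BNIP3. Their places are chr11:18394313-18394387 (plus strand), chr12:21657972-21658092 (minus strand), chrX:78103998-78104173 (plus strand) and chr10:131982014-131982173 (minus strand).
LDHA: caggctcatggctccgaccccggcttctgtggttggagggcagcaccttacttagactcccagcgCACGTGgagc
LDHB: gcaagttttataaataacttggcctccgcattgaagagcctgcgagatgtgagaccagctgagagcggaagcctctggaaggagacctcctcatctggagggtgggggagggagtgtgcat
PGK1: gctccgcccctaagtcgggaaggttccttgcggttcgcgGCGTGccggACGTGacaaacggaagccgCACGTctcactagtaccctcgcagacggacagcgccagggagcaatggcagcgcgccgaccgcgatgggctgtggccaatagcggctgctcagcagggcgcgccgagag
BNIP3: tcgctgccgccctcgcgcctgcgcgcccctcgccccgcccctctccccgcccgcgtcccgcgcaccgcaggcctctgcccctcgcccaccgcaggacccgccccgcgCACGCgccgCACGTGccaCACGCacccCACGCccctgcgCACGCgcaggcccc
Such a match is a description of letters, and no binding was measured. The windows follow the first start listed, which need not be the start used in TC32.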

How the data were processed

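Gene expression was measured by RNA sequencing of polyadenylated RNA from 9 TC32 libraries. The kit was stranded, per the labels' protocols. The authors made the files with CASAVA 1.8.2, Trimmomatic 0.36, STAR 2.5.2a and RSEM 1.2.31 on hg38, per the submitters' processing notes, and neither the annotation release nor the strand setting is given in the sources used here. Each deposited table holds an expected count per gene, TPM and an effective length in bases, per the file headers. The effective length score was used as the authors gave it, in 1 alternative.

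Expected counts were rounded, and the 45 second rows of pseudoautosomal genes were added to their partners. Genes were kept with filterByExpr (minimum count 10), scaled with TMM and fitted over all 9 libraries with edgeR 4.0.16 in R 4.3.3, giving 2-sided quasi-likelihood F tests adjusted by Benjamini-Hochberg over 17880 genes at 0.05. The SE of a log2 fold change is its absolute value over the root of F. DESeq2 1.42.0, limma 3.58.1 on log2(TPM + 1) and the other alternatives are given below. Shares in TPM were tested by exact permutation. Tests were tried on simulated counts first. Places of genes come from GENCODE 29, in which 57895 of 58233 IDs were found, and sequences from RefSeq.

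Groups and replicate numbers come from the labels, which do not say that replicates are separate cultures, so the p-values may reflect technical spread between libraries only. All pairs of replicates differed by more than sampling noise. Reads were counted without molecular identifiers. Named pseudogenes of 14 of the 37 genes held at most 2.52% of the counts of gene and pseudogenes together. Copies that RSEM could split leave those values uncertain. The members and lists were chosen with earlier results of these data known. Values in every library are given for genes called with at least a 2-fold change in inhibitor over Wnt3a cells and for 13 genes set by name, and of each wider list up to 5 highest and 5 lowest called genes are named. A gene that this rule selects is not reported here.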

Additional observations from a re-analysis of the deposited data

How the results depend on the processing

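The log2 fold changes and the counts of called genes were recomputed under 17 alternatives, of which 9 left out 1 library, and under a 2-fold rule chosen after the data were seen. TPM shares and promoter counts were not. The shares were recomputed only from expected counts over effective length, with a mean of 41.4% for LDHA in inhibitor cells. TPM is made from these same values up to a factor per library, which cancels in a share. The equal result was therefore fixed in advance and does not test how the shares depend on the processing. In inhibitor over Wnt3a cells, 7 of the 37 genes rose with limma-trend on log2(TPM + 1), 5 rose and 5 fell under the 2-fold rule, and 21 of the wider set rose with limma-trend. These compare with 12.8% of all genes that rose with limma-trend, and 7.32% that rose and 15.0% that fell under the 2-fold rule. Leaving out 1 library gave 11 to 15 rises and 9 to 10 falls among the 37, where 20.1 to 25.1% and 20.4 to 27.0% of all genes did, and 27 to 38 and 11 to 17 in the wider set. In Wnt3a over vehicle cells 1 of the 37 fell when genes with at least 1 count were kept, and 1 of the wider set fell then, with RLE factors and with DESeq2. Of all genes, 0.121% fell in the first of these settings, 0.0280% with RLE factors and 0.291% with DESeq2. Leaving out 1 library gave 0 rises and 0 falls among the 37 there, where 0.108 to 0.660% and 0 to 0.0974% of all genes did, and 0 rises and 0 to 1 falls in the wider set. In inhibitor over vehicle cells 5 of the 37 rose with limma-trend, 3 rose and 5 fell under the 2-fold rule, and 22 of the wider set rose with limma-trend as with library totals alone. All-gene shares were 15.2% higher with limma-trend, 17.1% higher with library totals alone, and 8.33% higher and 13.8% lower under the 2-fold rule. Leaving out 1 library gave 7 to 10 rises and 11 to 12 falls, where 20.8 to 24.9% and 20.1 to 25.2% of all genes did, and 29 to 37 and 13 to 18 in the wider set.

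No called change turned its sign in inhibitor over Wnt3a cells. Of the uncalled ones, with limma-trend the log2 fold change was -0.13 for HK1, -0.18 for GPI, -0.27 for PFKL, -0.10 for PFKP, -0.074 for ALDOA, -0.21 for BNIP3L, -0.30 for ANKRD37 and -0.15 for P4HA1. With library totals alone it was -0.14 for GPI, -0.18 for PFKL, -0.027 for PFKP, -0.013 for ALDOA, -0.039 for LDHB, -0.18 for BNIP3L and -0.043 for P4HA1. With the length offset it was 0.034 for PKM, -0.080 for ANKRD37 and 0.052 for P4HA2. Over vehicle cells ADM was at -0.011 with limma-trend. Leaving out 1 library moved ADM between -0.079 and 0.41 over vehicle cells, BNIP3L between -0.014 and 0.16, PFKFB4 between -0.14 and 0.083 and PKM between -0.12 and 0.11 over Wnt3a cells. ALDOC was not called with library totals alone or limma-trend, nor PFKM with either, with the length offset or with only the 2 groups compared. The cause was not tested.

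With the replicate block, 13 of the 37 rose and 10 fell in inhibitor over Wnt3a cells, 0 and 0 in Wnt3a over vehicle cells and 9 and 12 in inhibitor over vehicle cells. All-gene shares under the block were 25.0% and 26.2%, 0.431% and 0.0112%, and 25.4% and 25.2%. Correlations between libraries with the same number ran from -0.18 to 0.42. Across groups, 7 of 9 libraries correlated best with a library of their own number, a hint of pairing from the data only. The labels do not say whether equal numbers mark shared cultures, so whether they pair the samples is not known. Low counts limit SLC16A3, CA9, CA12, EGLN3 and ANKRD37.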
